A study of Mus musculus with 6 samples.

Results

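Follicular helper T cells are CD4+ T cells that enter B cell follicles and help B cells to form germinal centres and make antibody. The transcription factor BCL6 directs their differentiation and opposes BLIMP1, the product of Prdm1, and the receptor CXCR5 leads the cells toward the follicle. Contact with the B cell is held by SLAM family receptors and their adaptor SAP, and interleukin 21 is the cytokine through which the cells act on B cells. The 8 genes described here are Bcl6, Ascl2, Tox and Tox2 (transcriptional regulators), Cxcr5 (a chemokine receptor), Il21 (a cytokine), and Slamf6 and Sh2d1a (a SLAM receptor and SAP). They were taken by symbol from the 54532 rows of a gene expression table, in which each symbol occurred once, and 7 of the 8 passed the filter on low counts.

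The cells were primary CD4+ T cells from the spleens of C57BL/6 mice in the acute phase of experimental autoimmune encephalomyelitis (EAE), in which an induced T cell response attacks myelin of the brain and spinal cord. There were 3 libraries of Ogt-KD mice, of genotype Ogtfl/wt CD4-Cre, and 3 of control mice labelled wild type, and the design text names 3 mice in each group. By that genotype, 1 allele of Ogt, the gene for O-GlcNAc transferase, was floxed and the other was wild type, and a Cre recombinase under Cd4 regulatory sequence was active in developing and mature T cells. Ogt lies on chromosome X, and bulk RNA does not show which allele each cell used. The labels name neither Cre nor floxed allele in control mice, so what Ogt loss did and what Cre or linked DNA did cannot be told apart. The labels give no age, and all 6 mice had EAE, so no comparison with healthy mice was possible.

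None of the 7 tested genes passed the test of a difference between Ogt-KD and control CD4+ T cells after adjustment over all genes tested. Bcl6 RNA was nearly level, at 40.7 ± 5.48 CPM (read counts scaled to library size) in Ogt-KD cells and 41.5 ± 3.34 CPM in control cells (SD, n = 3 each). Tox, at 47.1 ± 5.08 CPM in Ogt-KD cells and 39.0 ± 1.92 CPM in control cells, was the one gene of the 8 whose groups did not overlap. Groups did not overlap for 13.3% of all genes tested, so 1 of 7 is near that share. The groups of the other tested genes overlapped. Of the 7, Il21 and Sh2d1a had the widest ranges of log2 CPM over the 6 libraries, at 1.27 and 1.04, and Tox2 came next at 0.95.

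Total counts per library ran from 18127031 to 25683453. Ogt itself had 661.9, 598.8 and 458.6 CPM in Ogt-KD replicates 1, 2 and 3, against 599.2, 627.9 and 562.4 CPM in control replicates 1, 2 and 3, so the groups overlapped and its RNA did not check the genotype labels. Over all 16075 genes tested with edgeR's quasi-likelihood test, 1 gene (0.00622%) had a Benjamini-Hochberg adjusted p under 0.05. That gene, Gm33707, is named because it is the only call, at a mean of 41.0 CPM in Ogt-KD libraries and 0.0188 CPM in control libraries. Both replicate 3 libraries scored highest on principal component 1 (44.8% of the variance), at 38.4 for Ogt-KD and 40.7 for control. Ogt-KD replicates 1 and 2 lay at the other end, at -35.7 and -42.4. Control replicates 1 and 2 lay between, at 6.92 and -7.95. Estimates without both replicate 3 libraries are also given for the 7 tested genes. On principal component 2 (20.2% of the variance) the groups did not overlap. Scores ran from 12.2 to 34.4 in Ogt-KD libraries and from -25.9 to -8.98 in control libraries.

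Promoter sequence is shown for Bcl6, which had the smallest range of log2 CPM over the 6 libraries among the 7 tested genes, and for Il21, which had the largest. Each run is the 250 bases before a transcription start that RefSeq lists on GRCm38.p6, read on the strand of the gene. Capitals mark TTCNNNGAA, the core of elements bound by STAT factors and BCL6, and GGAAA, the core bound by NFAT factors, on either strand.
Bcl6, chr16:23988853-23989102, minus strand: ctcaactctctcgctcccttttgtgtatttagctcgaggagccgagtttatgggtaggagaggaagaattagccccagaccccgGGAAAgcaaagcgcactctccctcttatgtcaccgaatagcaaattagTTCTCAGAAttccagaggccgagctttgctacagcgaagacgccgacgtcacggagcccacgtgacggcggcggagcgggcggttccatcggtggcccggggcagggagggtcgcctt
Il21, chr3:37232637-37232886, minus strand: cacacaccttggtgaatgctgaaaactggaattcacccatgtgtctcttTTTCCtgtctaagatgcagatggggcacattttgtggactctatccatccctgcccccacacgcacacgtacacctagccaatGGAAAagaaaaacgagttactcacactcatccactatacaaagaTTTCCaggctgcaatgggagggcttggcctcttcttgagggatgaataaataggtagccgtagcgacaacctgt
The printed Bcl6 run held 1 TTCNNNGAA match, from position -118 to -110 counted from the start, and 1 GGAAA match beginning at -166. The printed Il21 run held 3 GGAAA matches, beginning at -201, -118 and -74, and no TTCNNNGAA match in this window. Of the 32851 RefSeq promoters of the same table, 7.02% held TTCNNNGAA and 55.6% held GGAAA on either strand, also in the 250 bases before the start. In the printed runs the 2 motifs share no base. RefSeq lists another start of Bcl6 inside the gene, whose window at chr16:23981234-23981533 is not printed here. The 250 bases before that start held 3 TTCNNNGAA and 3 GGAAA matches, 1 of each overlapping. The letters are a description of the sequence and not evidence of binding.

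The transcriptional regulators come first. Bcl6 (ENSMUSG00000022508), the repressor that defines the lineage, lies at chr16:23965052-23988852 on the minus strand of GRCm38, the build of all gene positions here. It had 43.74, 43.9 and 34.33 CPM in Ogt-KD replicates 1, 2 and 3, against 37.68, 43.98 and 42.75 CPM in control replicates 1, 2 and 3. The lowest value was Ogt-KD replicate 3, the next lowest control replicate 1, and the other 4 libraries lay between 42.75 and 43.98 CPM, so the groups overlapped. As Ogt-KD over control, the log2 fold change was -0.03 (SE 0.13, 95% interval -0.33 to 0.27, edgeR adjusted p = 0.987). Scaling to T cell genes put it at 0.01, and leaving out both replicate 3 libraries at 0.10.

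Ascl2 (ENSMUSG00000009248, chr7:142966829-142969264, minus strand) encodes a basic helix-loop-helix factor that can raise Cxcr5 in mouse T cells. It was counted 15, 7 and 7 times in Ogt-KD replicates 1, 2 and 3, against 10, 9 and 21 times in control replicates 1, 2 and 3. Each group held a library above 14 counts and libraries at or under 10, so the groups overlapped. The gene did not pass the filter and was not tested, and with no filter its log2 fold change was put at -0.54 (SE 0.58, edgeR adjusted p = 0.844). At these counts a difference of that size was not detectable.

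Tox (ENSMUSG00000041272, chr4:6686353-6991557, minus strand) and Tox2 encode high mobility group proteins that act in T cell differentiation, and Tox2 is known to bind genes of the follicular helper programme. Tox had 52.9, 45.12 and 43.36 CPM in Ogt-KD replicates 1, 2 and 3, against 38.09, 41.16 and 37.63 CPM in control replicates 1, 2 and 3. All 3 Ogt-KD values lay above all 3 control values, and Ogt-KD replicate 1 stood highest. The log2 fold change was 0.27 (SE 0.11, 95% interval 0.02 to 0.52), with an unadjusted edgeR p of 0.0361 and an adjusted p of 0.624. Groups did not overlap for 13.3% of all genes tested and 7.52% had an unadjusted edgeR p under 0.05, beside 1 of the 7 tested genes here for each. Leaving out 1 library at a time gave Tox log2 fold changes from 0.19 to 0.33, all in the same direction.

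Tox2 (ENSMUSG00000074607, chr2:163203125-163324170, plus strand) had 52.66, 29.91 and 45.4 CPM in Ogt-KD replicates 1, 2 and 3, against 27.31, 39.91 and 47.99 CPM in control replicates 1, 2 and 3. Its highest value was Ogt-KD replicate 1 and its lowest control replicate 1, while the next lowest was Ogt-KD replicate 2, so the groups overlapped widely. On the log2 scale Ogt-KD over control came to 0.15 (SE 0.26, 95% interval -0.47 to 0.78, edgeR adjusted p = 0.970). It turned to -0.04 without control replicate 1 and to -0.02 without Ogt-KD replicate 1. The 2 TOX genes therefore had estimates above 0 from unlike patterns, 1 with separated groups and 1 resting on replicate 1.

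Cxcr5 (ENSMUSG00000047880, chr9:44511787-44561877, minus strand) encodes the receptor for CXCL13, the chemokine of B cell follicles. It had 82.69, 57.33 and 81.76 CPM in Ogt-KD replicates 1, 2 and 3, against 56.59, 64.84 and 78.3 CPM in control replicates 1, 2 and 3. Ogt-KD replicates 1 and 3 were highest, control replicate 3 came close to them, and Ogt-KD replicate 2 lay below control replicate 2. Its log2 fold change was 0.15 (SE 0.18, 95% interval -0.27 to 0.57, edgeR adjusted p = 0.944). It ranged from 0.05 to 0.30 when 1 library was left out.

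Il21 (ENSMUSG00000027718, chr3:37222759-37232636, minus strand) had 20.48, 15.77 and 34.93 CPM in Ogt-KD replicates 1, 2 and 3, against 21.74, 24.24 and 37.97 CPM in control replicates 1, 2 and 3. Replicate 3 was highest in both groups, and each Ogt-KD library lay below the control library of the same number although the groups overlapped. The log2 fold change was -0.23 (SE 0.33, 95% interval -1.02 to 0.55, edgeR adjusted p = 0.957). By replicate number the differences were -0.09, -0.62 and -0.12 on the log2 scale. With the replicate block, an edgeR fit that compares libraries of the same number, the estimate was -0.27 with an unadjusted p of 0.0840 and an adjusted p of 0.458. The labels state no pairing by number, so that fit rests on an uncertain pairing and its p-values can be too small. Leaving out control replicate 3 put the unblocked estimate at 0.03, and leaving out Ogt-KD replicate 3 put it at -0.62.

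Slamf6 (ENSMUSG00000015314, chr1:171917515-171953170, plus strand) encodes a self-binding receptor on T and B cells that signals through SAP. It had 370.3, 339 and 429.1 CPM in Ogt-KD replicates 1, 2 and 3, against 321.3, 351.6 and 353.6 CPM in control replicates 1, 2 and 3. Ogt-KD replicates 3 and 1 were above every control library, and Ogt-KD replicate 2 was below 2 of the 3, so the groups overlapped. Ogt-KD over control was 0.15 in log2 (SE 0.12, 95% interval -0.12 to 0.42, edgeR adjusted p = 0.869). Without Ogt-KD replicate 3 it was 0.05, so most of the estimate rests on that library.

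Sh2d1a (ENSMUSG00000005696, chrX:42502453-42529330, plus strand) encodes SAP, the adaptor without which T cells do not sustain contact with germinal centre B cells in mice. It had 69.17, 52.92 and 109.1 CPM in Ogt-KD replicates 1, 2 and 3, against 65.99, 58.68 and 78.97 CPM in control replicates 1, 2 and 3. The order of the replicates was the same in both groups, with number 3 highest and number 2 lowest, and the Ogt-KD libraries held both the highest and the lowest value. Its estimated log2 difference was 0.18 (SE 0.26, 95% interval -0.43 to 0.80, edgeR adjusted p = 0.956). Without Ogt-KD replicate 3 it was -0.15, so the sign of the estimate rests on that library.

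**Figure D1:**
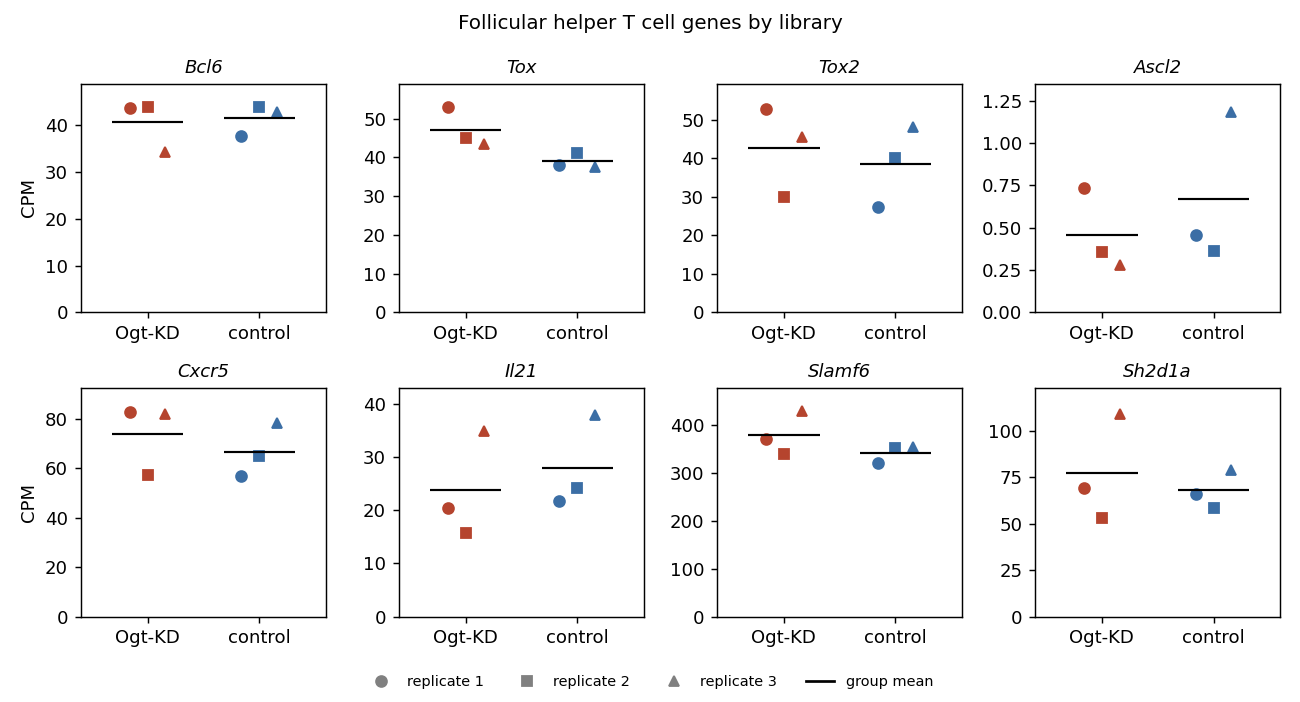
Normalised counts of the 8 genes in CPM (y axes, each starting at 0), with Ogt-KD libraries left of control libraries, 1 point per library, marker shape for the replicate number and a black line for the group mean. The 3 Ogt-KD points lie above the 3 control points for Tox alone, and Ascl2 stays under 1.2 CPM in every library. Groups did not overlap, in either direction, for 13.3% of all genes tested.

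Of the 7 tested genes, 5 had a log2 fold change above 0 and 2 below, with a median of 0.15. Over all genes tested, 49% were above 0 and the median was -0.0048. Without both replicate 3 libraries the estimates were 0.10 for Bcl6, 0.30 for Tox, 0.29 for Tox2, 0.20 for Cxcr5, -0.35 for Il21, 0.07 for Slamf6 and -0.03 for Sh2d1a. Bcl6 and Sh2d1a thus changed sign, and Slamf6 was closer to 0. Scaling to the T cell genes Cd3d, Cd3e, Cd3g, Cd247 and Cd4 left Il21 as the one estimate below 0, since Bcl6 turned to 0.01, and shifted the median of all genes to 0.04. No count of calls among the 7 exceeded 0 in any fit: with the replicate block 47 of 16075 genes passed (0.292%) and none of the 7, and with DESeq2 126 of 16066 genes passed (0.784%) and again none of the 7. At an unadjusted p under 0.05, 1 of the 7 passed in edgeR, in edgeR with the replicate block and in DESeq2, and it was Tox each time. In the authors' deposited table, 110 of 26365 genes (0.417%) had an adjusted p under 0.05 and none of the 8 was among them, Tox coming closest with a log2 fold change of 0.27 and an adjusted p of 0.759.

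The 95% intervals give the range of differences that these 6 libraries allow for each gene. The bounds of Bcl6, Tox, Tox2, Cxcr5, Slamf6 and Sh2d1a all lay between -1 and 1 on the log2 scale, and the lower bound of Il21 reached -1.02. The widest were those of Il21 and Tox2 and the narrowest those of Tox and Slamf6. In a bulk sample, fewer follicular helper cells and less RNA per cell cannot be told apart.

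**Figure D2:**
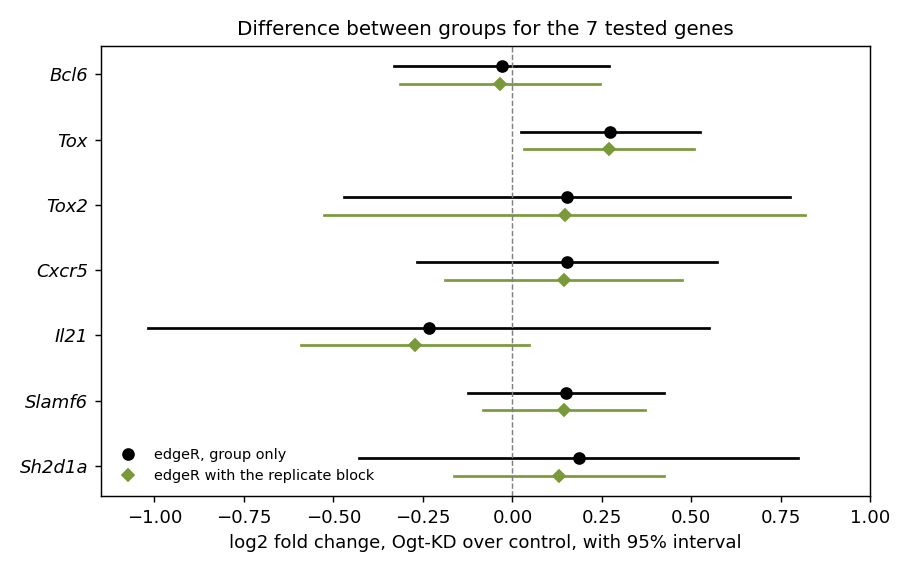
Log2 fold change (x axis, Ogt-KD over control) for the 7 tested genes (y axis), with 95% intervals, for edgeR with group only (black circles) and edgeR with the replicate block (green diamonds). The interval of Tox lies above 0 in both fits before adjustment, the other 6 cross 0, and the block narrows the intervals of Il21 and Sh2d1a most; scaling to T cell genes puts Bcl6 at 0.01.

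The genes did not all vary together across the 6 libraries. Centred on its own mean, Il21 stood at 0.50 in Ogt-KD replicate 3 and 0.62 in control replicate 3, and at -0.64 in Ogt-KD replicate 2, on the log2 scale. Sh2d1a followed the same order in the Ogt-KD libraries, at 0.63 in replicate 3 and -0.41 in replicate 2. Cxcr5 and Tox2 were also low in Ogt-KD replicate 2, at -0.27 and -0.40, and low in control replicate 1, at -0.29 and -0.53. In Ogt-KD replicate 3, Cxcr5, Tox2 and Slamf6 stood above their means, at 0.24, 0.20 and 0.26. Bcl6 went the other way, at -0.25 in Ogt-KD replicate 3 and 0.10 in Ogt-KD replicate 2. Its range over all 6 libraries was 0.36, against 1.27 for Il21.

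**Figure D3:**
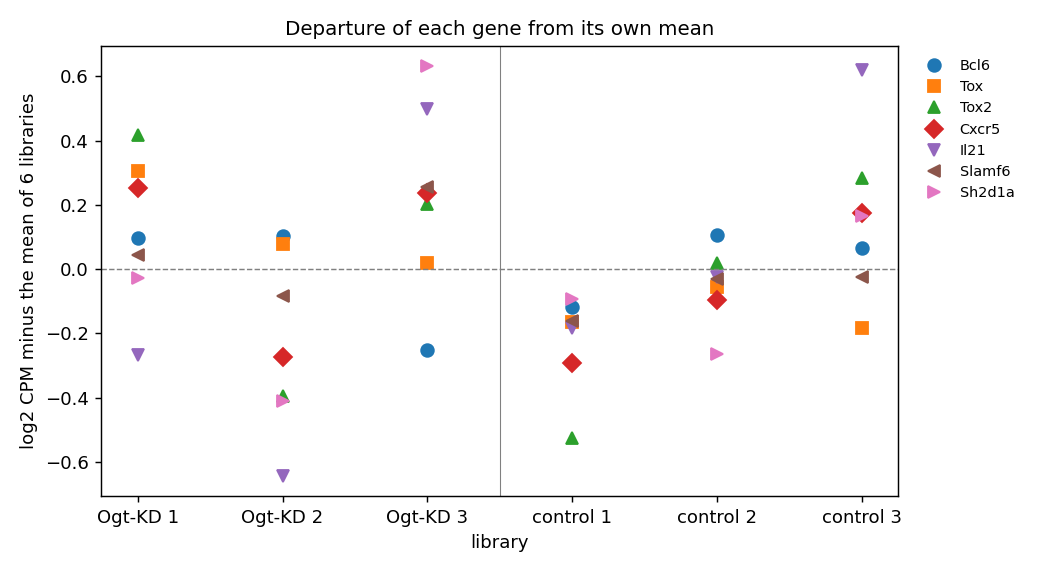
Log2 CPM of each tested gene minus its mean over the 6 libraries (y axis), by library (x axis), with Ogt-KD libraries left of control libraries. Il21 and Sh2d1a are high in Ogt-KD replicate 3 at 0.50 and 0.63, where Bcl6 is lowest at -0.25, and 5 of the 7 genes are below 0 in Ogt-KD replicate 2.

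Levels between genes were compared on the authors' FPKM, which divides by gene length, over all 6 libraries. Slamf6 was highest at 33.1 ± 3.52 FPKM and Cxcr5 next at 20.95 ± 3.65 FPKM (SD, n = 6), and each was above the following gene in 6 of 6 libraries. Sh2d1a at 13.1 ± 3.66 FPKM and Tox2 at 11.8 ± 2.98 FPKM changed places in 2 libraries and did not differ beyond their spread. Bcl6 at 6.09 ± 0.607 FPKM was above Tox at 5.62 ± 0.723 FPKM in 4 of 6 libraries, and Tox above Il21 at 4.89 ± 1.66 FPKM in 4 of 6, so those neighbours were not separated either. Ascl2 was lowest at 0.344 ± 0.210 FPKM, below Il21 in 6 of 6 libraries. Both receptor genes thus stood above all 4 regulator genes in mean FPKM.

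Some of the counts share sequence with a gene on the opposite strand, and whether counting used strand is not given in the sources used here. Slamf6 shares 1842 bases with Gm37065, which had 107 to 172 counts, and Cxcr5 shares 110 bases with Bcl9l, which had 3534 to 5826 counts. The partners of Bcl6, Tox, Il21 and Sh2d1a had at most 14 counts in any library. Reads from either strand cannot be told apart there, and Ascl2 and Tox2 had no overlapping gene.

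The genes with the most similar course over the 6 libraries were found by the mean absolute difference of centred log2 CPM among 10859 candidates. For Bcl6 they were Atp6v0c at 0.0218, Nol9 at 0.0221 and Zfpm1 at 0.0235. For Tox they included Eml2 at 0.0377 and Prr13 at 0.0387. For Cxcr5 they were Cfap157 at 0.0460, Spo11 at 0.0547 and Zfp991 at 0.0579, and Spo11 at 0.123 also stood among the 3 nearest to Tox2, with Rps4l at 0.0993 and Atp9a at 0.129. Il21 had Cttn at 0.0570, Gna12 at 0.0588 and Lmo4 at 0.0637, Slamf6 had Plekho1 at 0.0222, Tbcd at 0.0234 and Fbxl20 at 0.0301, and Sh2d1a had Fbxl4 at 0.0547, Vmac at 0.0624 and Pdk2 at 0.0638. None of the 7 tested genes had another of the 7 among its 3 nearest. With 3 kept of 10859 candidates, that cannot show whether the 7 vary together. With 6 points per gene these are descriptions, and the libraries share their depth and quality across genes.

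Other genes of the follicular helper programme also gave no call in edgeR with group only. Of 12 surface and effector genes, 11 had a log2 fold change above 0 and 1 below, with a median of 0.11, and none passed. That median was 0.012 when Ogt-KD replicate 3 was left out and 0.21 when Ogt-KD replicate 2 was. Pdcd1, the gene for the inhibitory receptor PD-1 that follicular helper cells carry at high density, had 69.1, 55.0 and 57.0 CPM in Ogt-KD replicates 1, 2 and 3, against 35.9, 44.1 and 51.3 CPM in control replicates 1, 2 and 3. All its Ogt-KD values lay above its control values, and the log2 fold change was 0.46 (SE 0.15, edgeR adjusted p = 0.583). Pdcd1 was the 1 of these 12 genes whose groups did not overlap, beside 13.3% of all genes tested. Icos, a costimulatory receptor needed by these cells, had a log2 fold change of 0.26 (edgeR adjusted p = 0.815), Tigit, an inhibitory receptor, 0.33 (edgeR adjusted p = 0.830), and P2rx7, an ATP receptor, 0.13 (edgeR adjusted p = 0.907). Icos was at 0.09 without Ogt-KD replicate 3.

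Among 14 factors and receptors that promote follicular helper cells, 7 lay above 0 and 7 below, with a median of -0.02 and no call with group only. Lef1 and Tcf7, which encode factors that act early to allow Bcl6 expression in mice, had log2 fold changes of -0.45 (SE 0.16, edgeR adjusted p = 0.606) and -0.25 (SE 0.12, edgeR adjusted p = 0.693), and all 3 Ogt-KD values were below all 3 control values for both. They were the 2 of these 14 genes whose groups did not overlap, near the 13.3% of all genes tested. Id3, an inhibitor of E proteins, had 0.38 (SE 0.19, edgeR adjusted p = 0.693), and Icosl, the ICOS ligand found mainly on cells that present antigen, had 0.79 (SE 0.40, edgeR adjusted p = 0.710). Stat3, Maf, Batf and Irf4 stood at -0.05, 0.07, 0.18 and 0.22. The median turned to 0.03 when the counts were scaled to T cell genes.

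The genes that oppose follicular helper cells, or that BCL6 represses, were likewise split, with 7 of 16 above 0 and 9 below, a median of -0.08 and no edgeR call with group only. They held 6 genes with an unadjusted edgeR p under 0.05, 3 higher and 3 lower, beside 7.52% of all genes tested, and 7 whose groups did not overlap, beside 13.3%. Prdm1 had 30.86, 30.92 and 24.18 CPM in Ogt-KD replicates 1, 2 and 3, against 15.94, 20.02 and 17.35 CPM in control replicates 1, 2 and 3. Every Ogt-KD value was above every control value, and the log2 fold change was 0.69 (SE 0.15, edgeR adjusted p = 0.483, adjusted p = 0.0256 with DESeq2). Klf2, a factor that keeps T cells in circulation and restrains follicular helper cells in mice, had 333.1, 331.1 and 365.5 CPM in Ogt-KD replicates 1, 2 and 3, against 465.1, 507.1 and 475.6 CPM in control replicates 1, 2 and 3. Its Ogt-KD values were all below its control values, and the log2 fold change was -0.49 (SE 0.10, edgeR adjusted p = 0.483, adjusted p = 0.00192 with DESeq2). Il2rb and Il2ra, which encode chains of the interleukin 2 receptor, had 0.52 (SE 0.12, edgeR adjusted p = 0.512, adjusted p = 0.0370 with DESeq2) and 0.55 (SE 0.18, edgeR adjusted p = 0.583). DESeq2 thus called 3 of these 16 genes, Prdm1, Klf2 and Il2rb, beside 0.784% of all genes.

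The SLAM and SAP families around Slamf6 and Sh2d1a had 8 of 10 tested genes above 0 and 2 below, with a median of 0.19 and no call with group only. The median was 0.0099 without Ogt-KD replicate 3 and 0.31 without control replicate 3. Slamf1, a receptor of the same family, had groups that did not overlap, at 0.43 in log2 fold change (SE 0.11, edgeR adjusted p = 0.526). That held for 2 of the 10 tested genes, beside 13.3% of all genes tested. Slamf7 had 1.12 (SE 0.40, edgeR adjusted p = 0.619) and Slamf8 0.75 (SE 0.43, edgeR adjusted p = 0.758), both known from myeloid and other cells beside T cells. Ly9, a SLAM receptor abundant on lymphocytes, had -0.16 (SE 0.08, edgeR adjusted p = 0.686). Of the relatives of Tox and Il21, Tox4 stood at -0.09 (edgeR adjusted p = 0.884), Il2, the neighbouring cytokine gene, at 0.29 (edgeR adjusted p = 0.904) and Il21r, the receptor for interleukin 21, at -0.07 (edgeR adjusted p = 0.981). Tox3 was too low to be tested.

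With libraries left out, some genes of these lists passed in edgeR. Without both replicate 3 libraries 0.214% of all genes tested passed, among them Slamf7 at 1.27 and Tbx21, the gene for the T helper 1 factor T-bet, at 0.92 (adjusted p = 0.0479 for both in edgeR). With the replicate block and both libraries numbered 3 left out, 1.81% of all genes passed, and the calls here were Icosl, Prdm1, Klf2, Tbx21 and Slamf7 (edgeR adjusted p = 0.0250, 0.0477, 0.04997, 0.0260 and 0.0181 in that order). With the block and both libraries numbered 1 left out, 1.81% passed too, and the calls were Il2ra and Slamf7 (edgeR adjusted p = 0.0255 and 0.0390). With the block and both libraries numbered 2 left out, 2 genes passed in all and none of these lists. The calls thus depended on which libraries were left out. The pairing was read from the same counts, so p-values with the block can be too small. None of the 8 follicular helper genes passed in these fits.

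**Figure D4:**
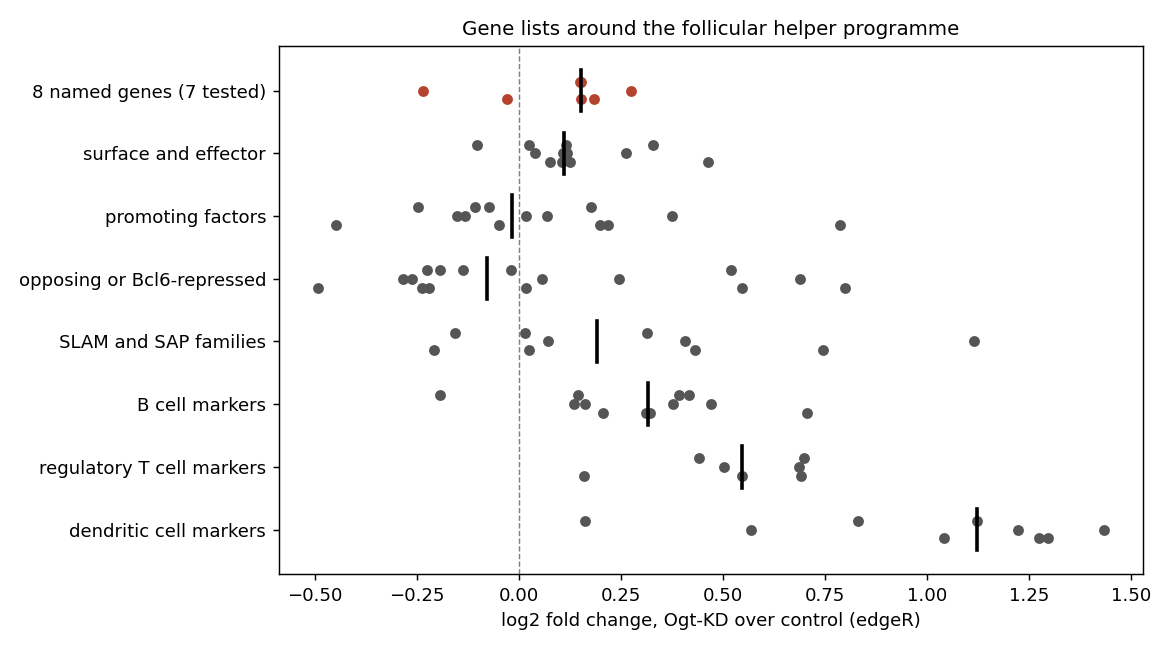
Log2 fold change in edgeR (x axis, Ogt-KD over control) for the 7 tested genes (red) and for the tested genes of 7 lists (grey), 1 point per gene, with a black bar at each median. The 7 genes centre on 0.15, the promoting and opposing lists on -0.02 and -0.08, and the regulatory T and dendritic cell markers on 0.55 and 1.12; scaling to T cell genes keeps those medians on the same side of 0 except for the promoting list, at 0.03.

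Since BCL6 and BLIMP1 repress each other's genes, Bcl6 was also set against Prdm1 within each library, a comparison chosen after the values were seen. The log2 ratio of Bcl6 over Prdm1 was 0.503, 0.506 and 0.506 in Ogt-KD replicates 1, 2 and 3, against 1.24, 1.14 and 1.30 in control replicates 1, 2 and 3. The Ogt-KD ratios were nearly equal and all below the control ratios, at 0.50 ± 0.00135 in Ogt-KD and 1.23 ± 0.0838 in control libraries (SD, n = 3 each). Bcl6 was counted 893, 866 and 859 times in Ogt-KD replicates 1, 2 and 3. Counting alone varies by more than the Ogt-KD SD at such counts, so that SD does not measure the spread between mice. The difference between the mean log2 ratios was -0.72, with p = 0.1 in a two-sided exact permutation test, the smallest p that 3 against 3 libraries allow, and 0.2 after adjustment over 2 ratios. Since the ratio was chosen with these values known, that p cannot count as a test of it. The adjustment does not cover the choice. The log2 fold change behind the difference was -0.03 for Bcl6 and 0.69 for Prdm1. The log2 ratio of Cxcr5 over Ccr7, the receptor that holds T cells in the T cell zone, was -1.44, -1.94 and -1.42 in Ogt-KD replicates 1, 2 and 3, against -2.37, -2.004 and -1.63 in control replicates 1, 2 and 3. Those groups overlapped, with a difference of 0.40 and an exact permutation p of 0.2, also 0.2 after adjustment.

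**Figure D5:**
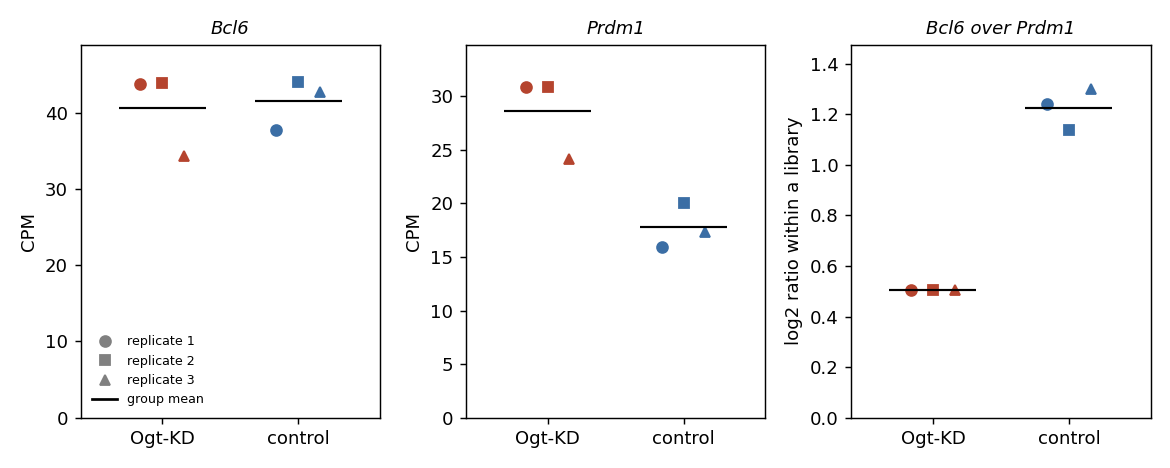
Bcl6 and Prdm1 in CPM (left and middle y axes) and the log2 ratio of Bcl6 over Prdm1 within each library (right y axis), with Ogt-KD libraries left of control libraries, 1 point per library and a black line for the group mean. Bcl6 overlaps between the groups, Prdm1 is higher in all 3 Ogt-KD libraries, and the ratio is 0.50 in Ogt-KD and 1.23 in control libraries.

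Marker lists of T cells and of other cells are given beside these values. The T cell identity genes summed to 5068, 4674 and 5107 CPM in Ogt-KD libraries 1, 2 and 3, against 5492, 4955 and 5098 CPM in control libraries 1, 2 and 3, with none at 0 in a library. Of these 11 genes, 4 had a log2 fold change above 0, and the median was -0.10. The 12 B cell markers summed to 217, 184 and 167 CPM in Ogt-KD libraries and 128, 176 and 148 CPM in control libraries, with 11 of 12 above 0, no call, and Cd22 with the smallest p at 0.71 (edgeR adjusted p = 0.624). Of the germinal centre B cell markers, 4 of 7 were tested, with sums of 51.3, 48.3 and 70.1 CPM over the list in Ogt-KD libraries and 51.8, 54.2 and 64.2 CPM in control libraries. BCL6 and CXCR5 are also made by B cells, so these levels stand beside the Bcl6 and Cxcr5 values, and their part in the result was not tested.

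The regulatory T cell markers had 7 of 7 log2 fold changes above 0, with a median of 0.55 and sums of 708, 868 and 844 CPM in Ogt-KD libraries and 467, 648 and 547 CPM in control libraries. None passed in edgeR with group only, and with the replicate block 2 of 7 passed, Foxp3 and Ikzf2, beside 0.292% of all genes. With group only, 5 of the 7 had an unadjusted edgeR p under 0.05, beside 7.52% of all genes. The groups did not overlap for 4 of the 7, beside 13.3%. Ikzf2, the gene for the factor HELIOS, had 0.69 in log2 (SE 0.15, block adjusted p = 0.0406, adjusted p = 0.0201 with DESeq2), and Foxp3 passed in the block alone (adjusted p = 0.0427 in edgeR with the block). Regulatory T cells are known to make BLIMP1, PD-1, ICOS, TIGIT and the interleukin 2 receptor, and the part of these markers in the Prdm1, Pdcd1, Icos, Tigit, Il2ra and Il2rb values was not tested. The dendritic cell markers had 9 of 9 above 0, with a median of 1.12 and sums of 1263, 1764 and 647 CPM in Ogt-KD libraries and 765, 774 and 376 CPM in control libraries. Itgax had the smallest p of them at 1.27 (edgeR adjusted p = 0.624, block adjusted p = 0.0363). With the replicate block 3 of 9 dendritic cell markers passed, Itgax, Zbtb46 and H2-Ab1, beside 0.292% of all genes. The part of the dendritic cell markers in the Slamf7, Slamf8 and Icosl values was not tested.

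The remaining marker lists gave no edgeR call with group only. The CD8 and NK cell markers had 5 of 6 above 0 with a median of 0.22, and Nkg7 at 0.99 (edgeR adjusted p = 0.536). The erythroid markers had 8 of 8 above 0 with a median of 1.53 (0.614 without Ogt-KD replicate 3 and 2.30 without control replicate 3), and summed to 42.2, 58.1 and 204 CPM in Ogt-KD libraries and 35.7, 17.2 and 50.2 CPM in control libraries. Slc4a1, which encodes the anion exchanger of red cells, was among 2 of the 8 that passed with the replicate block (edgeR adjusted p = 0.0480), beside 0.292% of all genes. The 12 cell cycle genes had 12 above 0 and a median of 0.80, with 10 at an unadjusted edgeR p under 0.05, beside 7.52% of all genes, and sums of 1321, 1305 and 1076 CPM in Ogt-KD libraries and 682, 861 and 926 CPM in control libraries. DESeq2 called 3 of them, Kif11, Cenpf and Top2a, beside 0.784% of all genes. Their part in the values of the 8 genes was not tested.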

How the data were processed

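Reads were processed by the authors. TopHat2 2.0.9, Bowtie2 2.0.6 and the build mm9 are named in the submitters' processing notes. For the counting tool and its strand setting, the sources used here give nothing. The deposited table holds the authors' read counts per gene for 6 libraries, their FPKM for each library, a mean normalised signal of each group by the authors, the authors' log2 fold change, their p-value and adjusted p-value, and the gene length in bases. The deposited FPKM equalled the count over gene length times 1 constant per library, within 0.1%, for 100% of genes with at least 100 counts in that library. Ascl2 was under that count and was not in the check. Of 54532 gene identifiers, 54409 matched GENCODE M21 on GRCm38, 53499 with identical coordinates, among them all 8 genes described, so positions are those of GRCm38 and not of mm9.

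Counts were tested with the edgeR 4.0.16 quasi-likelihood F test (robust, TMM, filterByExpr with a minimum count of 10 and total of 15) in R 4.3.3, with Benjamini-Hochberg adjustment over 16075 of the 28456 genes with a count, and a threshold of 0.05. The main fit held group only. CPM used TMM-scaled library sizes. DESeq2 1.42.0, limma-voom (limma 3.58.1), other scalings, no filter, libraries left out and the replicate block were alternatives. Scripts were tested on simulated data. No pair of libraries was a copy of another, with a chi-squared per degree of freedom of at least 9.27.

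The replicate numbers come from the sample titles, which state no shared litter or day. After group means were removed, same-numbered libraries had deviations that correlated, over genes, by 0.109, 0.346 and 0.523. Each exceeds 0.1, so the numbers were used as pairing in the replicate block, an alternative to the main fit with group only. Of the 6 other combinations, Ogt-KD replicate 1 with control replicate 2 reached 0.267, above the 0.109 of number 1. The rest lay between -0.418 and 0.0736, so the pairing is uncertain. Because the pairing was read from the counts that are then tested, p-values with the block can be too small.

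The 8 genes and all gene lists were chosen with earlier results of these data known. Named genes were the 8, Ogt, up to 4 genes of each pathway list with the smallest edgeR p (the top 2 for relatives of Il21), and, for each list of another cell type, the gene of highest mean CPM and that of smallest p. The 3 most similar genes of each tested member had an average log2 CPM of at least 1. Some genes that these rules name are not reported here. Stat3, Maf, Batf, Irf4, Gm33707, Tbx21, the block and DESeq2 calls in marker lists and the 2 ratios were chosen after their values were seen. Promoters came from RefSeq, which had an entry for 5 of the 8 genes.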

Additional observations from a re-analysis of the deposited data

How the results depend on the processing

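None of the 7 tested genes was called under any of the 16 alternatives, and the median log2 fold change of those tested (8 where the filter let Ascl2 in) ran from -0.06, with the replicate block and both libraries numbered 1 left out, to 0.26, without Ogt-KD replicate 2. The count over all genes depended on the setting: edgeR with group only called 1, no filter on low counts 4, the replicate block 47, DESeq2 126, leaving out both replicate 3 libraries 35, and leaving out 1 library at a time 1 to 2. With the replicate block and both libraries of 1 number left out, 295 genes were called without number 1, 2 without number 2 and 295 without number 3. The replicate block changed no call among the 7. Bcl6, at -0.03, was 0.013 scaled to T cell genes, 0.10 without both replicate 3 libraries, 0.10 with the block and number 3 left out, and -0.095 to 0.078 with 1 library left out. Tox2 was -0.25 and Cxcr5 -0.057 with the block and number 1 left out, and with 1 library left out Tox2 ran from -0.043 to 0.35, Il21 from -0.62 to 0.031 and Sh2d1a from -0.15 to 0.40. Without both replicate 3 libraries Sh2d1a was -0.032, Ogt 0.037 and Il21r 0.070, and with the block and number 3 left out they were -0.042, 0.035 and 0.069. With 1 library left out Ogt ran from -0.17 to 0.077, Il21r from -0.22 to 0.13 and Fas from -0.47 to 0.088, and Mybl1 was -0.031 with the block and number 2 left out. Tox and Slamf6 kept estimates above 0 under all 16. The difference in the log2 ratio of Bcl6 over Prdm1 ran from -0.77 to -0.68 and that of Cxcr5 over Ccr7 from 0.22 to 0.59 with 1 library left out. The cause was not tested in any case. Counts near 10 limit what can be said of Ascl2.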

Other observations

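Beside the follicular helper genes, the regulators Foxp3 and Tbx21 were read in the same fit, chosen after their values were seen. Foxp3, the factor that defines regulatory T cells, had 103, 134.9 and 84.52 CPM in Ogt-KD replicates 1, 2 and 3, against 57.59, 85.06 and 55.93 CPM in control replicates 1, 2 and 3, and the log2 fold change was 0.70 (SE 0.22, edgeR adjusted p = 0.583). Tbx21, which encodes the T helper 1 factor T-bet, had 37.82, 36.4 and 15.5 CPM in Ogt-KD replicates 1, 2 and 3, against 20.23, 19.01 and 12.11 CPM in control replicates 1, 2 and 3, and the log2 fold change was 0.80 (SE 0.36, edgeR adjusted p = 0.669). Each had 1 Ogt-KD library below the highest control library, so the groups overlapped for both. Each Ogt-KD library lay above the control library of the same number, though the labels state no pairing. Over all 6 libraries neither passed with group only, and with the replicate block Foxp3 passed (edgeR adjusted p = 0.0427).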
